A study of Mus musculus with 8 samples.

Results

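Expression of 10 genes that carry signals from the NOD receptors through RIP kinases and ubiquitin was examined in bone marrow-derived dendritic cells (BMDCs). The genes were taken by name from a table of 23356 genes. They comprise the receptor genes *Nod1* and *Nod2*, the kinase genes *Ripk1*, *Ripk2* and *Ripk3*, the ubiquitin ligase genes *Xiap*, *Birc2* and *Birc3*, and *Tnfaip3* and *Tnip1*, which encode A20 and its partner ABIN1. All 10 were among the 11397 genes that passed a minimum of 1 FPKM in at least 1 group. FPKM is the number of sequenced fragments corrected for transcript length and library size, so that levels can be set side by side between genes.

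BMDCs were grown with GM-CSF and IL-4 from the marrow of WT mice and of Arhgef2-/- mice on a C57BL/6 background, C57BL/6N in the study's methods. *Arhgef2* encodes GEF-H1, a guanine nucleotide exchange factor that is held on microtubules and freed when they come apart, and the deletion is carried by the whole animal. Cells of each genotype were left untreated (control) or were given ansamitocin-P3, a maytansine derivative that destabilizes microtubules, at 100 nM for 5 h. The 8 libraries, 2 per group, were combined by the authors into 1 FPKM value per group with a 95% interval, so no difference below was tested against the spread between replicates.

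NOD1 and NOD2 are cytosolic sensors of peptidoglycan fragments. On binding their ligands they recruit the kinase RIPK2, which XIAP and the cIAP proteins (encoded by *Birc2* and *Birc3*) decorate with ubiquitin chains that draw in the TAK1 and IKK kinases and so activate NF-κB. A20, together with ABIN1, edits or shields such chains and limits the signal, and RIPK1 and RIPK3 use related scaffolds downstream of TNF and Toll-like receptors, where they can direct cell death. GEF-H1 has been described as a partner of NOD1, NOD2 and RIPK2 signaling, which is why these genes are of interest in cells that lack it.

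The targeted gene *Arhgef2* had 42.3 FPKM (95% interval from 34.5 to 49.98) without and 45.9 (36.9 to 54.9) with the drug in WT DCs, against 4.59 (3.54 to 5.63) and 4.16 (3.22 to 5.11) in Arhgef2-/- DCs, which runs with the labels. The columns of WT cells name no genotype and were assigned by elimination. All 8 dendritic cell markers were above 0 in every group, with a summed level of 4694 and 6321 FPKM in control and treated WT DCs and of 3963 and 4451 FPKM in Arhgef2-/- DCs. *Cd74* was at 3073 to 4935 FPKM and *Itgax* at 102 to 175 FPKM, while *Flt3* (1.07 to 2.63 FPKM) and *Cd209a* (0.808 to 3.30 FPKM) were low. *Ccr7* rose with the drug in both genotypes, and its control and treated intervals were apart in each. WT DCs held 258 FPKM of it untreated and 602 when treated, while Arhgef2-/- DCs held 234 and 405. *Flt3* and *Cd209a* were lower with the drug in WT DCs, with intervals apart. In treated cells both of these were higher in Arhgef2-/- than in WT DCs, again with intervals apart. *Cd209a* was so in control cells too, at 3.30 against 1.81 FPKM. Of the 8 markers 4 had the higher value in treated Arhgef2-/- DCs. *Zbtb46*, *Cd74*, *H2-Ab1* and *Ccr7* had the lower value there, with overlapping intervals. *Zbtb46* was at 14.8 and 22.1 FPKM in control and treated WT DCs against 9.09 and 13.2 FPKM in Arhgef2-/- DCs. Markers of neutrophils and their progenitors were also high. All 7 that were found were above 0 in every group, and their summed level was 32422 FPKM in WT control DCs and 38285 in WT treated DCs against 21832 and 22240 FPKM in Arhgef2-/- DCs. *S100a8* alone held 10856 to 23110 FPKM, values above the upper bounds of their own Cuffdiff intervals. *S100a9*, the other gene that carries most of these sums, held 10004 to 12394 FPKM, with overlapping intervals between the genotypes. Of the 7 markers 4 were lower in control Arhgef2-/- DCs with intervals that did not overlap and 1 was higher. Summed mast cell and basophil markers ran the other way, with 190 and 196 FPKM in WT and 347 and 332 FPKM in Arhgef2-/- DCs. Summed macrophage markers were at 140 and 92.9 FPKM in WT and 150 and 127 FPKM in Arhgef2-/- DCs, and those of lymphoid and erythroid cells between 5.34 and 9.05 FPKM. Fewer cells of a type and less RNA per cell cannot be told apart in such values, and the part of cell makeup in the differences between the genotypes was not tested.

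The promoters of the A20 pair are shown because both genes are known targets of NF-κB and theirs were the windows with more than 1 match below. Each sequence, from RefSeq on GRCm38.p6, runs 5′ to 3′ on the minus strand from 250 bases before to 50 bases after the annotated start. Capitals mark matches to the NF-κB (κB) consensus on either strand and, in *Tnfaip3*, 1 match to the AP-1 consensus TGANTCA, which is the first run in capitals. The windows are chr10:19015361-19015660 for *Tnfaip3* and chr11:54962891-54963190 for *Tnip1*.
Tnfaip3: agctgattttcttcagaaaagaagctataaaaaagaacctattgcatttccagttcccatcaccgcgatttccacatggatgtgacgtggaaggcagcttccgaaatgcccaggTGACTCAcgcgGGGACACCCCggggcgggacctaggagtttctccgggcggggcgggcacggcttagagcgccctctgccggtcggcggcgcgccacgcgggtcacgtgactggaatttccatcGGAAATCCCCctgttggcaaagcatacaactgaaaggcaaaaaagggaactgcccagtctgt
Tnip1: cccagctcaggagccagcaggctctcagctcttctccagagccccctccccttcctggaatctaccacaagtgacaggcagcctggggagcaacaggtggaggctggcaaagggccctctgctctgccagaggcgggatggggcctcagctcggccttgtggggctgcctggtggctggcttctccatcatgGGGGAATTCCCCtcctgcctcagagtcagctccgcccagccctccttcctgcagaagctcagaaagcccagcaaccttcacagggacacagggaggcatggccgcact

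The *Tnfaip3* window held 2 separate κB matches, which start 125 and 12 bases before the start site, and an AP-1 match 136 bases before it. In *Tnip1* 3 κB matches overlapped in a palindrome 58 bases before the start. RefSeq windows were found for 9 of the 10 genes, 15 windows in all, and *Ripk2* had none in the table used here. Apart from the A20 pair, a κB match was found in 1 window of *Xiap*, and no other window of these genes held a κB or AP-1 match. Thus 3 of 15 windows held a κB match and 1 of 15 an AP-1 match. Of all 32851 windows 8.46% and 7.81% did, and of the 10874 windows of genes that passed the filter 10.4% and 5.27%. Such matches are a description and not evidence of binding.

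*Ripk2* (chromosome 4, 16123375 to 16163498 on GRCm38, positions as deposited) encodes the kinase to which both NOD receptors couple. It was at 28.7 FPKM (22.4 to 34.96) in WT control DCs and at 79.7 (63.3 to 95.6) with ansamitocin-P3. In Arhgef2-/- DCs it was at 27.4 (21.4 to 33.3) in control and 44.7 (35.05 to 54.2) in treated cells. In both genotypes the interval with the drug lay wholly above the one without it, and the control levels of the genotypes lay close together. *Ripk2* was thus 2.78-fold higher with the drug in WT and 1.63-fold higher in Arhgef2-/- DCs. Changes below are log2 ratios of FPKM + 1, given ± the distance to either bound of a 95% interval carried over from the intervals of the levels. For *Ripk2* the change was 1.44 ± 0.42 in WT and 0.68 ± 0.43 in Arhgef2-/- DCs, and their difference was 0.76 ± 0.60. Its change was larger than that of 98.4% of all genes tested in WT and of 98.0% in Arhgef2-/- DCs.

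**Figure D1:**
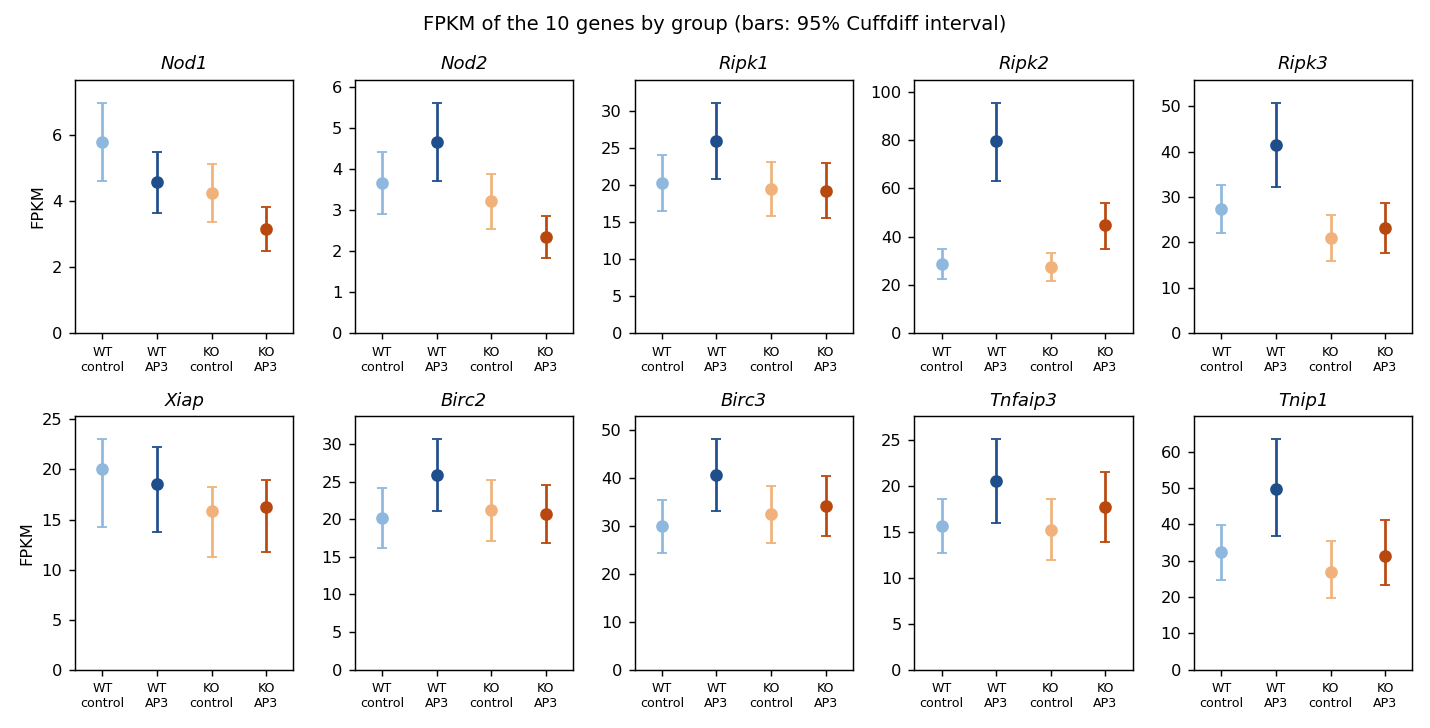
FPKM (y axis, from 0, scaled per gene) of each of the 10 genes in control and ansamitocin-P3-treated (AP3) WT and Arhgef2-/- (KO) DCs, with points for the pooled group value and bars for its 95% interval. *Ripk2* reaches 79.7 FPKM in treated WT DCs and 44.7 in treated Arhgef2-/- DCs, and for *Ripk2* alone the control and treated intervals are apart.

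A log2 ratio above 1 or below -1, that is past 2-fold, was set as the limit for a change. By this limit *Ripk2* rose in WT DCs and was the only member past it, where 4.94% of all genes tested were past it in either direction. In Arhgef2-/- DCs no member passed it, against 1.08% of all genes. Intervals of control and treated cells that did not overlap were found for 1 of 10 members in WT (16.8% of all genes) and 1 of 10 in Arhgef2-/- DCs (3.70% of all genes), which was *Ripk2* in both cases. The interval of the change, a wider net, excluded 0 for 4 members in WT DCs, namely *Ripk2*, *Ripk3*, *Birc3* and *Tnip1*, all of them higher. Since it excluded 0 for 30.1% of all genes, 4 of 10 is near the background. In Arhgef2-/- DCs it excluded 0 for 3 members, against 8.97% of all genes, with *Ripk2* higher and *Nod1* and *Nod2* lower. The upper bound there was -0.0019 for *Nod1* and -0.012 for *Nod2*, so the place of both among these 3 is marginal. The median change of the 10 members was 0.36 in WT DCs beside 0.0010 over all genes, and 0.056 in Arhgef2-/- DCs beside -0.0095 over all genes. Of the 10, 8 had a ratio above 0 in WT and 6 in Arhgef2-/- DCs, where 50.1% and 47.6% of all genes did.

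**Figure D2:**
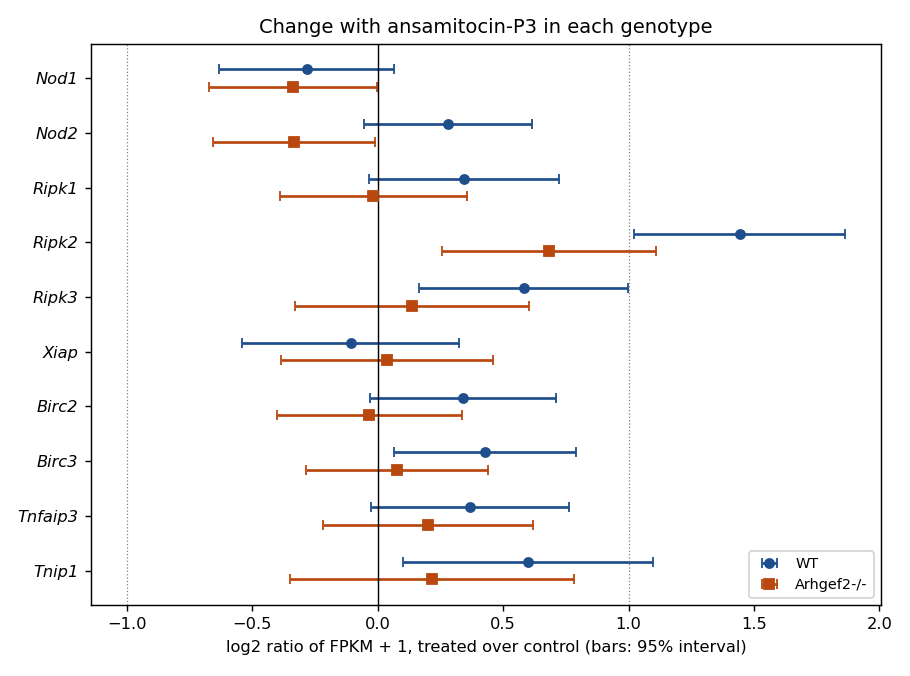
Log2 ratio of FPKM + 1 between treated and control cells (x axis) for each gene, with circles for WT and squares for Arhgef2-/- DCs, bars for the 95% interval and dotted lines at -1 and 1. *Ripk2* lies at 1.44 in WT and 0.68 in Arhgef2-/- DCs, and *Nod2* at 0.28 and -0.33.

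The receptor genes were the lowest of the 10 in every group. *Nod2* (chromosome 8, 88647347 to 88688474), whose product senses muramyl dipeptide, was at 3.66 FPKM (2.90 to 4.41) in WT control DCs and 4.66 (3.71 to 5.61) in WT treated DCs. It was at 3.21 (2.53 to 3.88) in control and 2.34 (1.82 to 2.86) in treated Arhgef2-/- DCs. The value of treated cells thus lay above that of control cells in WT and below it in Arhgef2-/- DCs, with overlapping intervals in each genotype. The changes were 0.28 ± 0.34 and -0.33 ± 0.32, and their difference was 0.61 ± 0.47. In treated cells the intervals of the genotypes were apart, with *Nod2* 1.99-fold higher in WT.

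*Nod1* (chromosome 6, 54923942 to 54972612), the sensor of fragments with diaminopimelic acid, was at 5.80 FPKM (4.60 to 6.99) in WT control DCs and 4.58 (3.66 to 5.51) in WT treated DCs, and at 4.26 (3.38 to 5.14) and 3.16 (2.49 to 3.83) in Arhgef2-/- DCs. Treated cells had the lower value in both genotypes, with changes of -0.28 ± 0.35 and -0.34 ± 0.34, and these intervals of control and treated cells overlapped. The drug effects on *Nod1* differed by 0.054 ± 0.48 between the genotypes. The order of the receptors was not the same in every group. *Nod1* was 1.58 times *Nod2* in control WT DCs, with intervals apart, but 0.983 times *Nod2* in treated WT DCs. In Arhgef2-/- DCs it was 1.33 times *Nod2* in control and 1.35 times in treated cells, with overlapping intervals.

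Among the kinases outside the NOD branch, *Ripk3* (chromosome 14, 55784995 to 55788857), required for necroptosis, was at 27.3 FPKM (22.0 to 32.6) in WT control DCs and 41.4 (32.1 to 50.7) in WT treated DCs. In Arhgef2-/- DCs it was at 21.0 (15.9 to 26.0) and 23.1 (17.7 to 28.7) FPKM. The WT intervals overlapped narrowly, while in Arhgef2-/- DCs they overlapped over most of their width. Its change was 0.58 ± 0.42 in WT and 0.14 ± 0.47 in Arhgef2-/- DCs, and the difference of 0.45 ± 0.63 included 0. *Ripk1* (chromosome 13, 34002874 to 34035170), the scaffold kinase of TNF receptor complexes, was at 20.3 (16.5 to 24.1) and 26.0 (20.8 to 31.2) FPKM in WT and at 19.5 (15.8 to 23.2) and 19.3 (15.5 to 23.0) FPKM in Arhgef2-/- DCs. All of these intervals overlapped, and the changes were 0.34 ± 0.38 and -0.017 ± 0.37. *Ripk2* was 1.41 times *Ripk1* in control cells of either genotype with overlapping intervals, and 3.07 times *Ripk1* in treated WT against 2.32 times in treated Arhgef2-/- DCs, with intervals apart in both.

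None of the 3 ubiquitin ligase genes passed the limit. *Birc3* (chromosome 9, 7848701 to 7873170), which encodes cIAP2, was at 29.8 FPKM (24.4 to 35.3) in WT control DCs and 40.5 (33.1 to 47.9) in WT treated DCs, and at 32.3 (26.4 to 38.2) and 34.1 (27.9 to 40.4) in Arhgef2-/- DCs. Its change was 0.43 ± 0.36 in WT and 0.075 ± 0.36 in Arhgef2-/- DCs. *Birc2*, its neighbor on the same strand (7818226 to 7835255), which encodes cIAP1, was at 20.2 (16.2 to 24.2) and 25.9 (21.1 to 30.6) FPKM in WT and at 21.2 (17.2 to 25.3) and 20.7 (16.8 to 24.6) in Arhgef2-/- DCs. *Birc3* stood above *Birc2* in all 4 groups with intervals apart, by ratios from 1.48 to 1.65. *Xiap* (chromosome X, 42067836 to 42109664), the ligase with the closest tie to RIPK2, was at 20.02 (14.3 to 23.0) and 18.5 (13.8 to 22.2) FPKM in WT and at 15.8 (11.3 to 18.2) and 16.3 (11.7 to 18.9) in Arhgef2-/- DCs. Its changes of -0.11 ± 0.43 and 0.037 ± 0.42 were near 0, and its 4 intervals overlapped one another.

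Neither gene of the A20 pair passed the limit. *Tnfaip3* (chromosome 10, 19000910 to 19015410) was at 15.6 FPKM (12.7 to 18.5) in WT control DCs and 20.5 (16.0 to 25.0) in WT treated DCs, and at 15.2 (11.9 to 18.6) and 17.7 (13.9 to 21.5) in Arhgef2-/- DCs, with overlap throughout. *Tnip1* (chromosome 11, 54910787 to 54962940) was at 32.4 (24.6 to 39.8) and 49.6 (36.9 to 63.3) FPKM in WT and at 26.9 (19.8 to 35.4) and 31.4 (23.3 to 41.1) in Arhgef2-/- DCs. *Tnip1* was above *Tnfaip3* in all 4 groups with intervals apart, by ratios from 1.76 to 2.42. The change was 0.60 ± 0.50 for *Tnip1* and 0.37 ± 0.39 for *Tnfaip3* in WT, and 0.22 ± 0.56 and 0.20 ± 0.42 in Arhgef2-/- DCs. *Tnfaip3* thus ranged from 15.2 to 20.5 FPKM over all groups.

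In control WT DCs the order of levels was *Tnip1*, *Birc3*, *Ripk2*, *Ripk3*, *Ripk1*, *Birc2*, *Xiap*, *Tnfaip3*, *Nod1* and *Nod2*. Neighbors in this order did not differ beyond their intervals except *Tnfaip3* from *Nod1* and *Nod1* from *Nod2*. In treated WT DCs *Ripk2* stood first, apart from *Tnip1* in second place, and *Birc3* was apart from *Ripk1* and *Xiap* from *Nod2*. In control Arhgef2-/- DCs *Birc3* stood first, and only *Tnfaip3* and *Nod1* were neighbors apart. In treated Arhgef2-/- DCs *Ripk2* stood first too, but its interval overlapped that of *Birc3*, and only *Xiap* and *Nod1* were neighbors apart.

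The comparisons between the genotypes use the same 4 values per gene as those of the drug, so the sets of comparisons share their groups. No member was past the limit of 1 in control cells, against 1.88% of all genes, and no pair of intervals was apart, against 4.74% of all genes. The interval of the difference excluded 0 only for *Nod1*, which was lower in Arhgef2-/- DCs by a log2 ratio of -0.37 ± 0.35, where this held for 10.0% of all genes. The median log2 ratio of Arhgef2-/- to WT was -0.11 over the members and -0.0081 over all genes. After ansamitocin-P3 all 10 members had the lower value in Arhgef2-/- DCs, with ratios from -0.18 for *Xiap* to -0.82 for *Ripk2* and a median of -0.42, beside -0.026 over all genes. In control cells 8 of the 10 already had the lower value, and 46.9% of all genes were above 0 in treated and 47.7% in control cells. No member was past the limit, against 4.06% of all genes. Intervals were apart for 3 of 10 members, *Ripk2*, *Ripk3* and *Nod2*, against 13.7% of all genes in either direction. The interval of the difference excluded 0 for 6 of 10 members, *Nod1*, *Ripk1* and *Tnip1* besides these, against 26.0% of all genes. *Ripk2* was -0.82 ± 0.42, *Ripk3* -0.81 ± 0.46 and *Nod2* -0.76 ± 0.33. Of the 7 neutrophil markers, 4 were also lower in Arhgef2-/- DCs with intervals apart, in control as in treated cells. *Mpo* ran the other way with intervals apart in both. It was at 26.4 FPKM in WT control DCs and 21.7 in WT treated DCs against 63.1 and 59.0 FPKM in Arhgef2-/- DCs. *Camp*, an antimicrobial peptide gene of neutrophils, was at 189 FPKM in WT control DCs and 202 in WT treated DCs against 15.0 and 18.7 FPKM in Arhgef2-/- DCs, and the part of this in the lower values of the members was not tested.

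**Figure D3:**
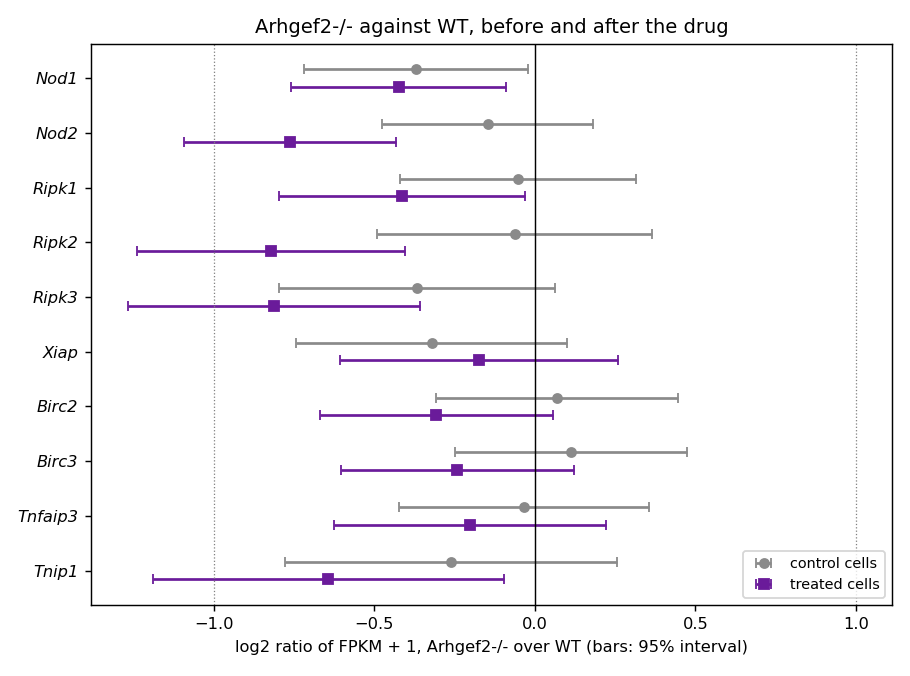
Log2 ratio of FPKM + 1 between Arhgef2-/- and WT DCs (x axis), with circles for control and squares for treated cells, bars for the 95% interval and dotted lines at -1 and 1. All 10 squares lie to the left of 0, from -0.18 to -0.82, while the circles lie between -0.37 and 0.11.

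As the difference between the drug effects in WT and Arhgef2-/- DCs, no member reached 1, against 1.90% of all genes. The value was above 0 for 9 of 10 members, the exception being *Xiap* at -0.15 ± 0.60, and 51.6% of all genes were above 0. The median was 0.37 over the members and 0.010 over all genes. The interval excluded 0 for 2 of 10 members, *Ripk2* and *Nod2*, against 8.29% of all genes. For the other 8 members it included 0, and it ran from -0.43 to 0.54 for *Nod1*, which leaves out values as high as those of *Ripk2* and *Nod2*, and from -0.17 to 0.89 for *Ripk1*, which does not.

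Other genes of the pathway were measured in 5 lists of 57 genes, all of which were found and 52 of which passed the filter. In WT DCs 4 of the 52 rose past the limit and 1 fell, beside 4.94% of all genes past it in either direction. In Arhgef2-/- DCs 0 of the 52 passed it, which is near the 1.08% of all genes. By intervals of control and treated cells that were apart, 9 of the 52 were higher and 2 lower in WT DCs (16.8% of all genes in either direction). In Arhgef2-/- DCs 5 of the 52 were higher and 2 lower by this rule, against 3.70% of all genes. The median changes of the 52 were 0.16 in WT and 0.032 in Arhgef2-/- DCs, beside 0.0010 and -0.0095 over all genes. Among 7 genes of ligand uptake and receptor partners, *Slc15a3*, an endolysosomal transporter of NOD ligands, rose in WT DCs, where it was at 79.1 FPKM (64.0 to 94.2) without and 257 FPKM (207 to 307) with the drug. The Arhgef2-/- values were 71.0 (57.5 to 84.5) and 118 (95.8 to 141). These values gave changes of 1.69 ± 0.39 for WT and 0.73 ± 0.38 for Arhgef2-/- DCs. In treated cells it was lower in Arhgef2-/- DCs by a log2 ratio of -1.11, the only gene of the 52 past the limit in that comparison, where 4.06% of all genes were. *Mavs*, which encodes an adaptor of RNA sensing, had a change of -0.85 ± 1.12 in WT DCs, an interval that included 0. The median of this list was 0.063 in WT and 0.065 in Arhgef2-/- DCs.

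No gene passed the limit, and no intervals of control and treated cells were apart, among the 14 genes of ubiquitin chain assembly and the TAK1 complex, which include the LUBAC subunits, the TRAF ligases and the TAB proteins. Their medians were 0.19 in WT and 0.052 in Arhgef2-/- DCs. The largest changes in WT were 0.50 ± 0.74 for *Ikbkg*, which encodes NEMO, and 0.44 ± 0.36 for *Traf2*, the ligase that brings cIAPs to TNF receptors. The 13 genes of chain editing and removal had medians of 0.42 and 0.13. *Rnf11*, a partner of the A20 complex, rose in WT DCs, with 22.5 FPKM (15.7 to 27.3) in control and 63.2 FPKM (45.2 to 72.7) in drug-treated cells, a change of 1.45 ± 0.47, and was at 22.4 and 37.1 FPKM in Arhgef2-/- DCs, a change of 0.71 ± 0.47. *Otud7b*, a deubiquitinase, rose by 1.07 ± 0.35 in WT and had a change of 0.57 ± 0.34 in Arhgef2-/- DCs. *Tax1bp1*, another A20 partner, had changes of 0.70 ± 0.38 and 0.23 ± 0.36. *Tnip3*, which encodes the ABIN1 relative ABIN3, had changes of similar size in both genotypes, 0.86 ± 0.43 in WT and 0.74 ± 0.44 in Arhgef2-/- DCs, with intervals of control and treated cells apart in each. *Usp18*, an interferon-induced protease of ISG15, fell from 21.3 to 7.05 FPKM in WT, a change of -1.47 ± 0.40, and was at 18.5 and 10.8 FPKM in Arhgef2-/- DCs.

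Of the 9 genes around RIP kinases and caspase-8, *Ticam1*, which encodes the adaptor TRIF, rose from 13.2 to 29.9 FPKM in WT DCs, a change of 1.12 ± 0.37, with 0.75 ± 0.39 in Arhgef2-/- DCs. *Cflar*, which encodes the caspase-8 regulator cFLIP, had changes of 0.84 ± 0.44 and 0.64 ± 0.40, with intervals of control and treated cells apart in both genotypes. The medians of this list were 0.19 and -0.099. Of 9 other IAP genes and IAP antagonists none passed the limit, and the median was -0.25 in WT and 0.0093 in Arhgef2-/- DCs. *Septin4*, among whose products is the XIAP antagonist ARTS, was at 6.71 and 3.16 FPKM in WT DCs. In Arhgef2-/- DCs it was at 5.86 and 3.15 FPKM, and the intervals of control and treated cells were apart in both genotypes. *Naip2* encodes a sensor of bacterial secretion system proteins in the IAP family. Its changes were 0.66 ± 0.43 in WT and 0.44 ± 0.45 in Arhgef2-/- DCs.

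**Figure D4:**
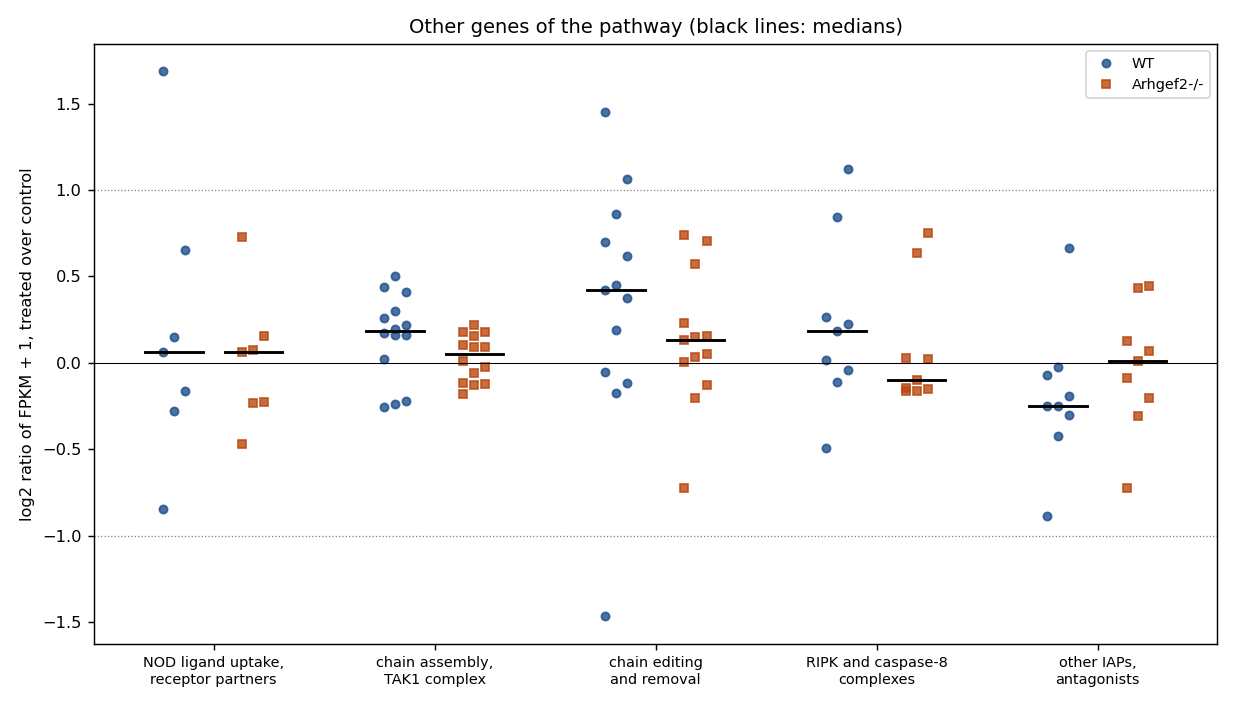
Log2 ratio of FPKM + 1 between treated and control cells (y axis) for the 52 other pathway genes in 5 lists (x axis), with circles for WT, squares for Arhgef2-/- DCs, black lines for list medians and dotted lines at -1 and 1. Past the lines are 4 genes upward and 1 downward in WT, and none in Arhgef2-/- DCs.

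The uniqueness of the members' reads was examined with GENCODE transcripts, since reads were 35 bases long. No stretch of 35 bases in the coding transcripts of *Nod1*, *Ripk2*, *Ripk3*, *Tnfaip3* and *Tnip1* was found in a transcript of another gene. The share was 0.767% for *Nod2*, 2.27% for *Xiap*, 3.05% for *Birc2*, 7.07% for *Ripk1* and 11.9% for *Birc3*. *Birc2* and *Birc3* had 85 such stretches in common. How Cuffdiff divided shared reads is not given in the sources used here, and the values of *Birc3* and *Ripk1* carry this limit most.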

How the data were processed

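RNA from 8 BMDC libraries, 2 in each of 4 groups, was sequenced as stranded 35-base paired ends from polyadenylated RNA. The authors computed the deposited FPKM with Cuffdiff (1.05 in the submitters' processing notes, mm10), as 1 value per gene and group with a 95% interval and a status word. The aligner and annotation of this table are not given in the sources used here. Depth per library was not determined, and the intervals carry the precision instead; their median width was 41.7% of the value over the 40 values of the 10 genes, all of which lay inside their own interval. No per-sample column was left unused (0 columns).

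Of 23356 genes, those with a status other than OK (106 with low data, 1 with too many data) and those under 1 FPKM in every group were removed, leaving 11397. Log2 ratios of FPKM + 1 were taken, which understate changes of low genes. Intervals of ratios were carried over by the delta method (factor 1.96), treating groups as independent. No test was made, because values are pooled. The 10 genes, the pathway and marker lists and the limits were chosen with earlier results of these data known, and the interval of a ratio was added after the values were seen. Genes named are the 10, *Arhgef2*, and list genes past 2-fold or with the 2 largest WT changes at 5 FPKM or more. Also named are some, not all, of the markers at 10 FPKM or more and the 3 nearest patterns to any member past 2-fold. *Tax1bp1*, *Tnip3*, *Flt3* and *Cd209a*, and which markers to print, were chosen after their values were seen. Python 3.11.15, numpy 2.4.6, pandas 2.3.3 and matplotlib 3.10.9 were used, and the computation was checked on simulated data. A planned comparison of protein sequences was not made, and promoters were taken from RefSeq (GRCm38.p6). Alternatives tried were other pseudocounts, filters, a rescaling of the groups and stricter and looser limits.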

Additional observations from a re-analysis of the deposited data

Results flagged for a closer look

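Among the 10 genes, the drug effects in WT and Arhgef2-/- DCs differed by more than the 95% interval carried over from the Cuffdiff intervals for *Ripk2*, by 0.76 on the log2 scale (interval 0.16 to 1.36), and for *Nod2*, by 0.61 (0.15 to 1.08). *Ripk2* had the higher value in treated cells of both genotypes, and *Nod2* in treated WT but in control Arhgef2-/- DCs. With 1 pooled value per group these differences were not tested against replicates, and the same interval excluded 0 for 8.29% of all genes.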

How the results depend on the processing

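Of 245 recomputed changes of the members, none had the other sign and 244 moved by less than their interval. The exception was *Nod2* between the genotypes in treated cells, at -0.40 with a pseudocount of 5 FPKM against -0.76. Rescaling the groups (factors 0.995 to 1.01) moved no change by more than 0.014. A filter leaves the ratio of a gene as it was, and a pseudocount cannot reverse a ratio between groups. The kept signs were thus largely fixed in advance and say little about robustness. Past 1.5-fold in place of 2-fold, 2 members were counted for the drug in WT, 1 in Arhgef2-/- DCs, 4 between the genotypes in treated cells and 2 for the difference of the drug effects. A filter of 5 FPKM removed *Nod2* and so left 1 member whose interval of that difference excluded 0. In a window of 150 bases around the start, 0 members held an AP-1 match. The other counts, 58 of 64, were within 1.5 times of those given. No paired analysis was possible because the table holds pooled values, and for the same reason no replicate could be left out.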

Other observations

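The pattern of *Ripk2* over the 4 groups was nearest to those of *Rnf11*, *Lrrc32* and *Havcr2* among 8894 genes with at least 5 FPKM in a group, by the Euclidean distance between centred log2 values (0.065, 0.069 and 0.077). *Lrrc32*, which encodes the TGF-β anchor GARP, was at 14.4 FPKM in WT control DCs and 43.6 in WT treated DCs and at 14.3 and 23.8 FPKM in Arhgef2-/- DCs. *Havcr2*, which encodes the checkpoint receptor TIM-3, was at 16.8 and 48.9 FPKM in WT and at 17.3 and 26.8 FPKM in Arhgef2-/- DCs. *Rnf11* is also in the chain editing list above. With 4 pooled values the distance describes these groups and nothing of shared control.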
